A study of Mus musculus with 16 samples.

Results

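Spata (spermatogenesis associated) and Tex (testis expressed) are naming series given to genes by where their transcripts were found, mainly in the testis, and not by shared sequence or function. The 65 genes described here are those whose symbol begins with Spata or Tex followed by a digit, without Tex12, among 35920 genes in the deposited table. With Tex12 the same rule finds 66. The genes were read in all 16 libraries and split into those present at 18 days of age, those seen in adults only, and the rest.

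Testis RNA had been passed over J2, a monoclonal antibody against RNA duplexes. The captured RNA (called J2 here) and the RNA that was not captured (flow-through) were sequenced apart. The 6 groups were wild-type testis of postnatal day 18 (P18) mice, P18 testis labelled Dicer KO with the genotype Dcr-/-, and wild-type adult testis, each in both fractions. Each P18 group had 3 libraries and each adult group had 2. The P18 mice of both genotypes were C57BL/6 x 129S4/SvJae. The strain of the adults is labelled unknown, so age and strain cannot be told apart. The labels name no Cre driver and no cell type in which Dicer, the RNase that processes RNA duplexes and precursors of microRNAs, was removed. They do not say whether replicates came from separate animals, so the p-values below reflect only how far these samples scatter, and that scatter may be technical.

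Male germ cells divide as spermatogonia, pass through meiosis as spermatocytes, and then become haploid spermatids, which build the acrosome, pack the nucleus with protamines and assemble the sperm tail with its mitochondrial sheath. In young mice the first wave of germ cells passes through these stages together. At P18 the most advanced cells are mainly late spermatocytes, with spermatids only beginning to form, and the adult testis holds every stage. Spata and Tex genes serve many of these steps: some work in meiosis, some in the sperm head or tail, and a few are expressed in most tissues.

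The values are the authors' normalized counts, which are not divided by gene length, so levels are compared here between samples and not between genes. The normalized counts of a library added up to between 6.05 and 34.9 M (M, 1e+06) for flow-through, and between 0.446 and 0.824 M for J2. By an estimate from values repeated across genes, 1 read was worth 2.005 to 8.31 units in flow-through and 0.116 to 0.516 in J2. A value of 10 corresponded to an estimated 1.20 to 4.99 flow-through reads or 19.4 to 86.3 J2 reads, and a value of 0 in flow-through is the weaker statement. Adult J2 replicate 2 stood apart, with 22683 genes above 0 against 5953 to 12403 in the other 15 libraries, and with 64 of the 65 Spata and Tex genes above 0. All 10 germ cell markers were above 0 in the adult groups, 8 in each P18 flow-through group, 7 in wild-type P18 J2 and 5 in knock-out P18 J2. Epididymis markers summed to at most 9.23 at P18 and at most 2.13 in adults. Prm1, a protamine of elongating spermatids, was listed at 0 in 11 of the 12 P18 libraries and at 2.44 in the other. Its adult normalized counts were 524 and 855 (flow-through) and 411 and 319 (J2). Dicer1 ranged from 0 to 13.7 over the 16 libraries, too low to check the knock-out label.

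A gene was counted as present at 18 days when its value reached 10 in at least 2 of the 12 P18 libraries, and as adults only when it failed this and reached 10 in at least 2 of the 4 adult libraries. By this rule 24 of the 65 genes were present at 18 days (10 Spata and 14 Tex), 23 were seen in adults only (13 Spata and 10 Tex) and 18 were low (5 Spata and 13 Tex). Of all 35920 genes, 22.8% were present at 18 days, 2.32% were seen in adults only and 74.8% were low, so the adults-only share was 35.4% among Spata and Tex genes against 2.32% overall. The classes are a description, since they were set by these values, and no class is tested for age. The count of adults-only genes was 30 at a threshold of 5 and 14 at a threshold of 20. It was 19 without adult J2 replicate 2 and 20 without adult flow-through replicate 2.

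**Figure D1:**
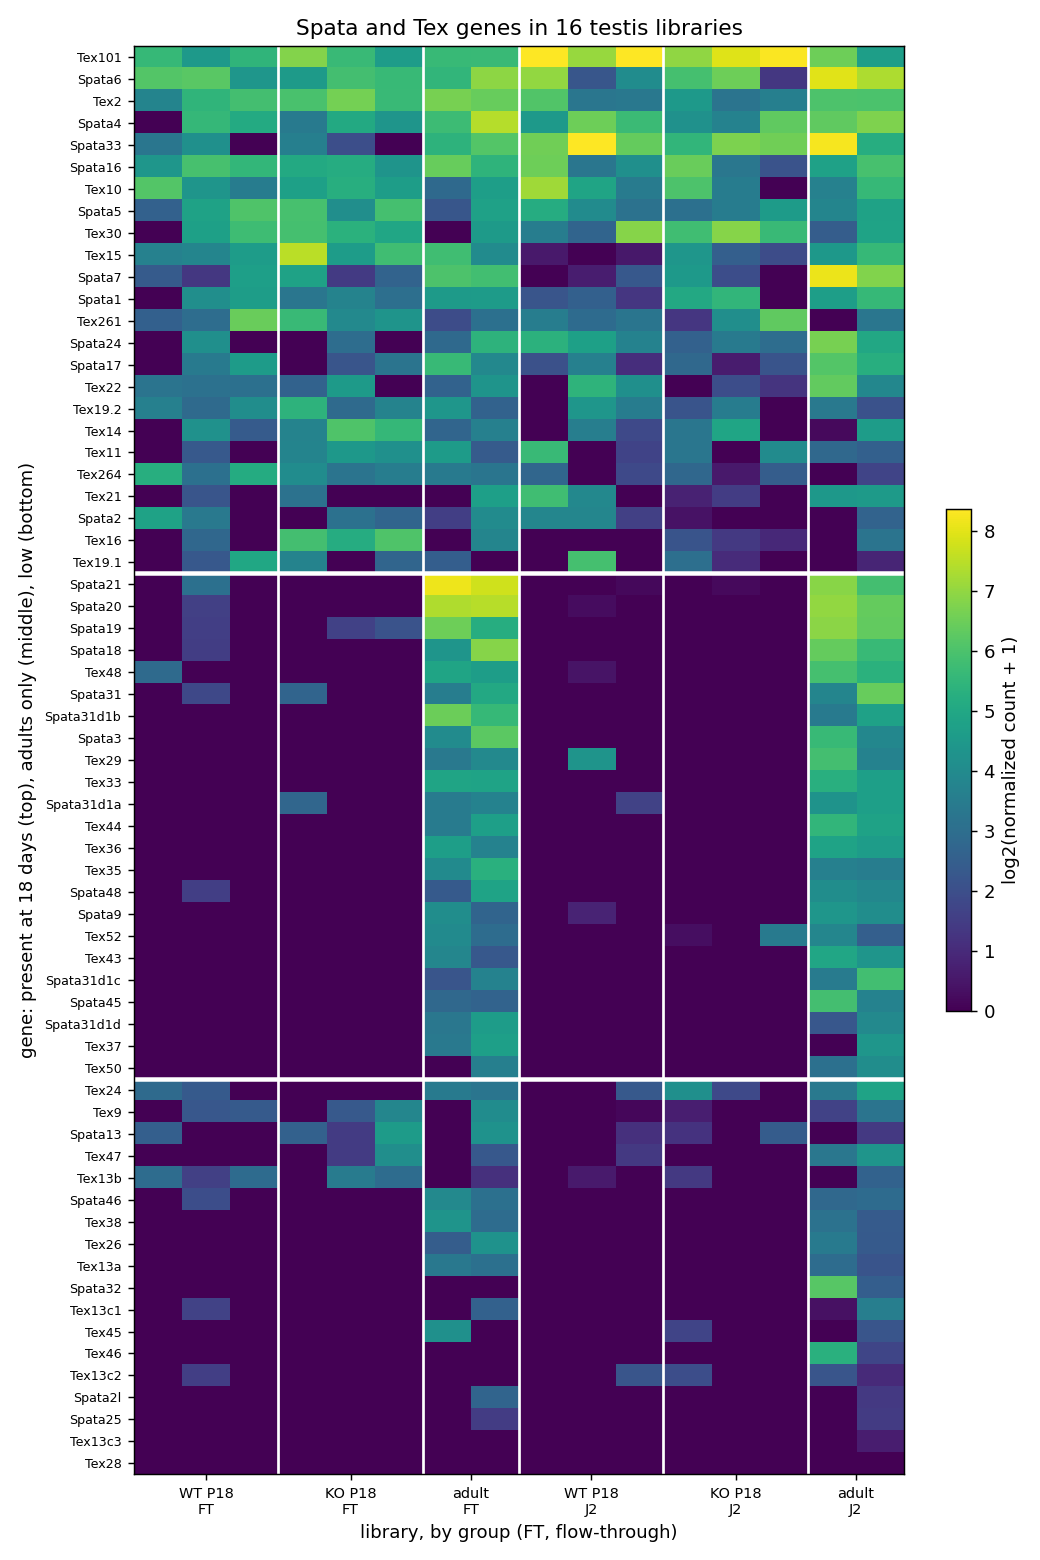
Colour gives log2(normalized count + 1) of each of the 65 genes (vertical axis, grouped by class) in each of the 16 libraries (horizontal axis, grouped by genotype, age and fraction). The 23 adults-only genes in the middle block are dark in nearly all P18 columns and lit in the adult columns of both fractions, while the 24 genes in the top block are lit unevenly in all groups.

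Close to the threshold, the second-highest P18 value of Spata17 was 11.5, that of Spata2 was 13.4 and that of Tex21 was 14.1, which placed them just inside the class present at 18 days. Tex13b at 6.78, Tex24 at 6.48 and Spata13 at 5.06 lay just outside it. Among the adults-only genes, the second-highest adult value was 11.2 for Tex50, 12.2 for Spata45 and 12.2 for Spata31d1c. Tex26 at 9.78, Tex24 at 9.66 and Tex47 at 9.07 fell just short.

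The split followed the known roles of the genes in part. All 5 genes of the meiotic and early germ cell list (Tex11, Tex14, Tex15, Tex19.1 and Tex19.2) were present at 18 days, and all 5 measured genes of the Spata31 family were seen in adults only. Of the 6 genes of the sperm tail and mitochondrial sheath, 3 were present at 18 days (Spata6, Spata17 and Spata33) and 3 were seen in adults only (Spata18, Spata19 and Tex43). Of the 4 genes of the acrosome, sperm head and sperm surface, Spata16 and Tex101 were present at 18 days, and Spata46 and Tex38 were low. Of the 9 broadly expressed genes, 7 were present at 18 days and 2 were low. By chromosome, 7 of the 65 genes were X-linked; 2 of these (Tex11 and Tex16) were present at 18 days, 5 were low and 0 were seen in adults only. Over all genes with a position, 4.36% were X-linked, as were 4.06% of the adults-only genes.

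The adults-only genes were close to empty at P18. Of their 276 values in the P18 libraries, 20 were above 0, and 12 of the 23 genes were listed at 0 in all 12 libraries. In adults 90 of 92 values were above 0 and 76 were at least 10. The lowest adult value exceeded the highest P18 value in 19 of the 23 genes. Wild-type flow-through replicate 2 held 6 of the P18 values above 0, for Spata18, Spata19, Spata20, Spata21, Spata31 and Spata48. Apart from Spata21 at 7.57 these were 1.85 to 2.48 units, in a library where 1 read was worth about 2.005 units. The highest P18 value of the class was 18.9, for Tex29 in wild-type J2 replicate 2. The next was 9.98, for Tex52 in knock-out J2 replicate 3.

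**Figure D2:**
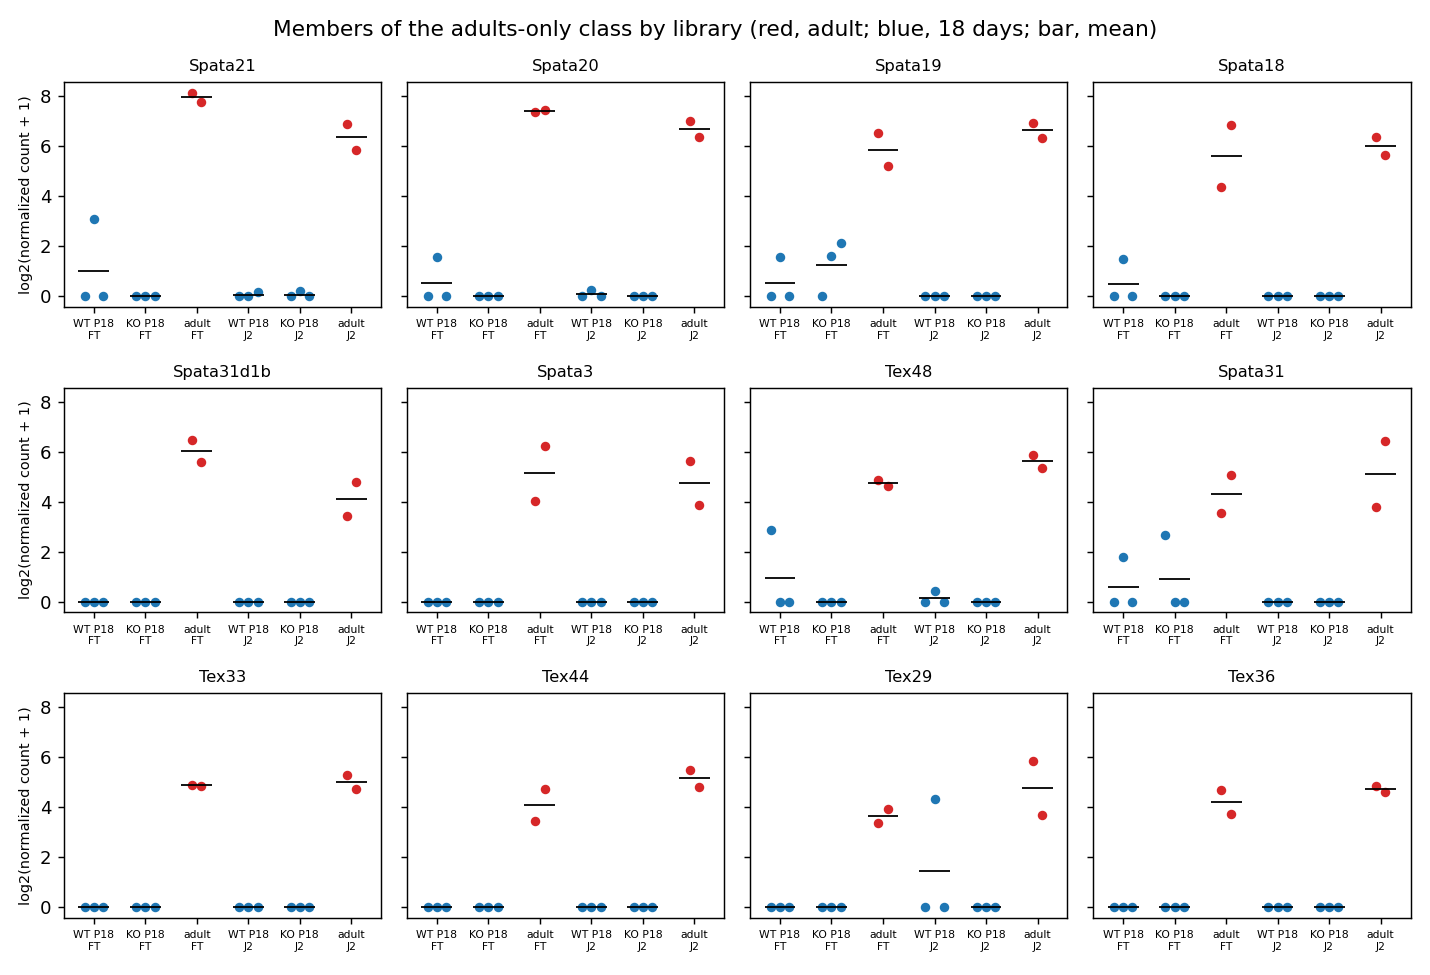
Points give log2(normalized count + 1) in each library for the 12 adults-only genes with the highest mean adult value, by group, and bars give group means. Adult points (red) lie above every P18 point (blue) in each panel except that of Tex29, where wild-type J2 replicate 2 reached 18.9.

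Spata21, which encodes a protein with an EF-hand, lies at chr4:141088320-141112760 (GRCm38.p6). Its normalized counts were 283 and 216 in adult flow-through and 116 and 57.3 in adult J2. At P18 it was listed at 7.57 in wild-type flow-through replicate 2, at 0.135 and 0.164 in a J2 library of each genotype, and at 0 in the other 9 libraries. Spata20, a spermatid gene with a thioredoxin-like domain (chr11:94478904-94485310), had 164 and 175 in adult flow-through and 128 and 82.2 in adult J2. Its P18 values were 1.98, 0.212 and otherwise 0. For both genes the adult and P18 libraries did not overlap in either fraction.

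Spata19 encodes a mitochondrial protein of the sperm midpiece (chr9:27396807-27401711). It stood at 90.6 and 35.8 in adult flow-through and at 120 and 80.1 in adult J2, with 1.95, 2.05 and 3.42 in 3 flow-through libraries at P18 and 0 in all 6 J2 libraries. Spata18, also known as Mieap, acts in mitochondrial quality control (chr5:73651380-73679584). Adult J2 held 82.6 and 49.1 and adult flow-through 19.6 and 113, so the 2 flow-through libraries were far apart. Its only P18 value above 0 was 1.85. Tex43, the other gene of the sperm tail list seen in adults only, had 13.4 and 3.89 in adult flow-through and 29.9 and 19.4 in adult J2, and 0 in every P18 library.

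The Spata31 genes measured here form a family on chromosome 13, and how alike their sequences are was not examined. Spata31d1a, Spata31d1b and Spata31d1d lie side by side between 59700083 and 59731752, and Spata31 and Spata31d1c lie at 64917406-64923195 and 65033058-65038004. How reads were divided among related genes cannot be read from the values, so the level of each gene is uncertain. Spata31d1b had 88.6 and 47.8 in adult flow-through and 9.81 and 26.9 in adult J2. For Spata31 the flow-through values were 10.7 and 32.4 and the J2 values 12.9 and 84.7. For Spata31d1c they were 3.65 and 12.2, and 10.2 and 56.1. At P18 these 3 genes, Spata31d1a and Spata31d1d were listed at 0 apart from Spata31 at 2.48 and 5.47 and Spata31d1a at 5.79 and 2.17. All 5 genes were therefore above 0 in every adult library and at or near 0 at P18.

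Several adults-only genes of less known function showed the same division. Spata3 had 15.5 and 74.7 in adult flow-through and 48.4 and 13.5 in adult J2. For Tex33 the flow-through values were 28.7 and 28.2 and the J2 values 37.7 and 25.3. For Tex36 they were 24.9 and 12.2, and 28.0 and 23.4. For Tex44 they were 10.05 and 25.4, and 44.6 and 27.3. These 4 genes were listed at 0 in all 12 P18 libraries. Tex48 had 28.3 and 24.1 in adult flow-through and 58.3 and 39.8 in adult J2, with 6.43 and 0.369 as its P18 values above 0. Tex29 had adult flow-through values of 9.38 and 14.5 and adult J2 values of 56.7 and 12.01, so its P18 value of 18.9 lay above 3 of its 4 adult values. Summed over the 23 genes, the class held 875 and 971 units in adult flow-through and 932 and 731 in adult J2, against 0 to 20.3 in the P18 libraries.

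**Figure D3:**
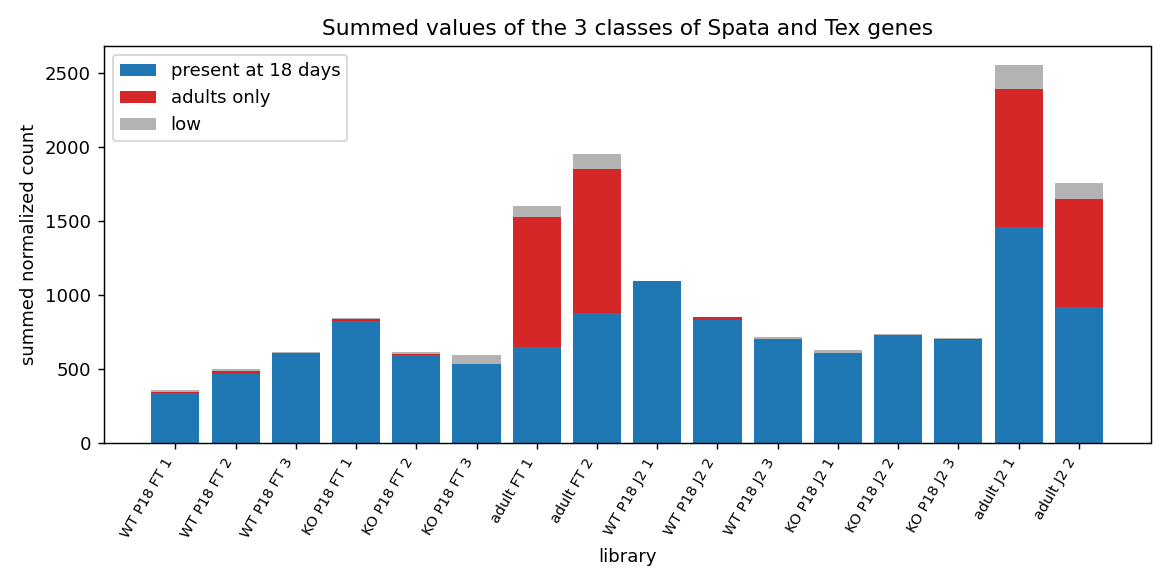
Stacked bars give the summed normalized count of the 3 classes in each of the 16 libraries. The adults-only part (red) is 731 to 971 units in the 4 adult libraries and at most 20.3 in the 12 P18 libraries, while the part present at 18 days (blue) runs from 336 to 1096 at P18 and from 651 to 1457 in adults.

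Promoter sequences were read for these genes because several spermatid genes are known targets of CREM, a factor that binds the cyclic AMP response element (TGACGTCA), and of RFX factors, which bind the X-box. RefSeq windows from 250 bases before to 50 after a transcript start (GRCm38.p6) were held for 56 of the 65 genes. The 120 bases before the start are printed for adults-only genes among the 12 of highest adult level that held a match there. Capitals mark TGACNTCA or its reverse complement TGANGTCA in the first 5, the shorter ACGTCA (reverse complement of TGACGT) in Spata18, and GGCAAC (reverse complement of GTTGCC, the core of the X-box) in Tex33 and Tex36.
Spata3, chr1:86021825-86021944, plus strand: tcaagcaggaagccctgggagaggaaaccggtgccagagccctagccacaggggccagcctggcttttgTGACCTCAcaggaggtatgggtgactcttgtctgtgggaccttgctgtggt
Tex44, chr1:86426209-86426328, plus strand: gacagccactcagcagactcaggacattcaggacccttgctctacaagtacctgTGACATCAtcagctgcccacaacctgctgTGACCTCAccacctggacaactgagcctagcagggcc
Tex48, chr4:63622434-63622553, minus strand: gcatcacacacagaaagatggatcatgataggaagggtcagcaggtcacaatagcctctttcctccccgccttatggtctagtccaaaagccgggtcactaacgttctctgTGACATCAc
Tex29, chr8:11840401-11840520, plus strand: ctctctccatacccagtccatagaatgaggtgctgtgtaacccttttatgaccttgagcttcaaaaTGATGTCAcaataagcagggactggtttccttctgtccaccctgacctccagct
Spata20, chr11:94485311-94485430, minus strand: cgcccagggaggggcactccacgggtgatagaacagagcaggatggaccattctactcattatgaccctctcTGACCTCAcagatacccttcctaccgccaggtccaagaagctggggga
Spata18, chr5:73651260-73651379, plus strand: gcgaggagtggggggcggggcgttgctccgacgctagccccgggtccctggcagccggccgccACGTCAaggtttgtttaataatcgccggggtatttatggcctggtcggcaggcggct
Tex33, chr15:78395913-78396032, minus strand: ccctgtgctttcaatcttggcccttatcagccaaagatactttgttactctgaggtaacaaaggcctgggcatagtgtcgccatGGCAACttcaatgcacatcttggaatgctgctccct
Tex36, chr7:133602116-133602235, minus strand: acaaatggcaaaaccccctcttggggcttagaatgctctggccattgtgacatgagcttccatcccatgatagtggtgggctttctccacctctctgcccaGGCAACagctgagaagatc

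The element with any base in place of its second G, TGACNTCA, was found on either strand in 7 of 22 adults-only genes with a window (31.8%), in 4 of 20 genes present at 18 days (20%) and in 3 of 14 low genes (21.4%). Of all 26994 genes with a window, 10.03% held it. This motif was chosen after the promoters had been read. Several starts of a gene give overlapping windows, and by window the share was 33.3% of 30 for adults-only genes and 8.84% of 32817 overall. Tex44 held 2 copies, with TGACATCA starting 66 bases and TGACCTCA 37 bases before the start. The same TGACCTCA lay 51 bases before the start of Spata3 and 48 before that of Spata20, TGATGTCA lay 54 before that of Tex29, and TGACATCA lay 9 before the printed start of Tex48. The shorter TGACGT, which overlaps TGACNTCA where N is G, was in 3 of 22, 4 of 20 and 2 of 14 genes of the 3 classes, and in 8.36% of all genes. GTTGCC was in 6 of 22 (27.3%), 3 of 20 and 1 of 14, and in 14.1% of all genes. TATAAA was in 1 of 22, 3 of 20 and 1 of 14, and in 15.7% of all genes. A match in these windows describes letters only.

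Adult and wild-type P18 testis were then compared over all genes within each fraction, with limma on log2(value + 1) and Benjamini-Hochberg adjustment. In J2, 17 of the 40 Spata and Tex genes tested were higher in adults and 0 lower, beside 5.07% of all genes higher and 0.392% lower. In flow-through 10 of 38 were higher and 0 lower, beside 3.08% and 0.154% of all genes. The median log2 difference was 3.38 in J2 and 1.87 in flow-through, against 0.33 and 0.28 over all genes tested. Groups did not overlap for 23 higher and 1 lower gene in J2 (18.7% and 8.83% of all genes) and for 19 and 0 in flow-through (16.6% and 8.57%). The filter shaped these counts. A gene needed a value of 10 in 2 libraries to be tested, and 21 of the 40 genes tested in J2 and 14 of the 38 in flow-through passed through the adult libraries alone, so those genes had to be higher in adults. All 17 genes called in J2 and all 10 called in flow-through were among them, so the counts and medians are a description and do not support the direction. In J2 25 of the 65 genes were not tested, and in flow-through 27. In bulk tissue, more cells of a type and more RNA per cell cannot be told apart.

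The 18 genes called in either fraction were of the adults-only class, which restates how that class was set. In both fractions 9 were called, which is 52.9% of the J2 calls and 90% of the flow-through calls. Of the 8 called in J2 alone, 5 were not tested in flow-through, and Spata31d1b, called in flow-through alone, was not tested in J2. For genes with a wild-type P18 value above 0, the log2 difference depends on the added 1 but can be given. For Spata20 it was 6.60 (SE 0.76) in J2 and 6.89 (SE 1.03) in flow-through. For Spata21 it was 6.31 (SE 0.74) in J2 and 6.92 (SE 1.29) in flow-through. In flow-through it was 5.10 (SE 0.99) for Spata18 and 5.34 (SE 1.18) for Spata19. In J2 the differences of Spata9, Tex48 and Spata31d1a were 3.97, 5.47 and 3.95. For the other genes past the threshold all 3 wild-type P18 values were listed at 0, so no fold is given. In J2 these were Spata3, Spata18, Spata19, Spata31, Spata31d1c, Spata45, Spata48, Tex33, Tex35, Tex36, Tex43 and Tex44. In flow-through they were Spata3, Spata31d1b, Tex33, Tex35, Tex36 and Tex44.

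These limits bear on these calls. Without the filter on low values 0 of the genes were called in either fraction, although 35 of 64 in J2 and 29 of 61 in flow-through had an unadjusted p under 0.05, and the called genes had adjusted p from 0.0688 to 0.125 in J2 and from 0.0968 to 0.124 in flow-through. Leaving out either adult library ended every call, because the called genes then failed the filter. With the tested genes kept, the adult arm is 1 library whose spread is assumed from the other groups, and the genes were chosen with both adult libraries. The 17 J2 genes then stayed past the threshold and Spata19 and Spata21 of the 10 in flow-through did not, which is no independent check.

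**Figure D4:**
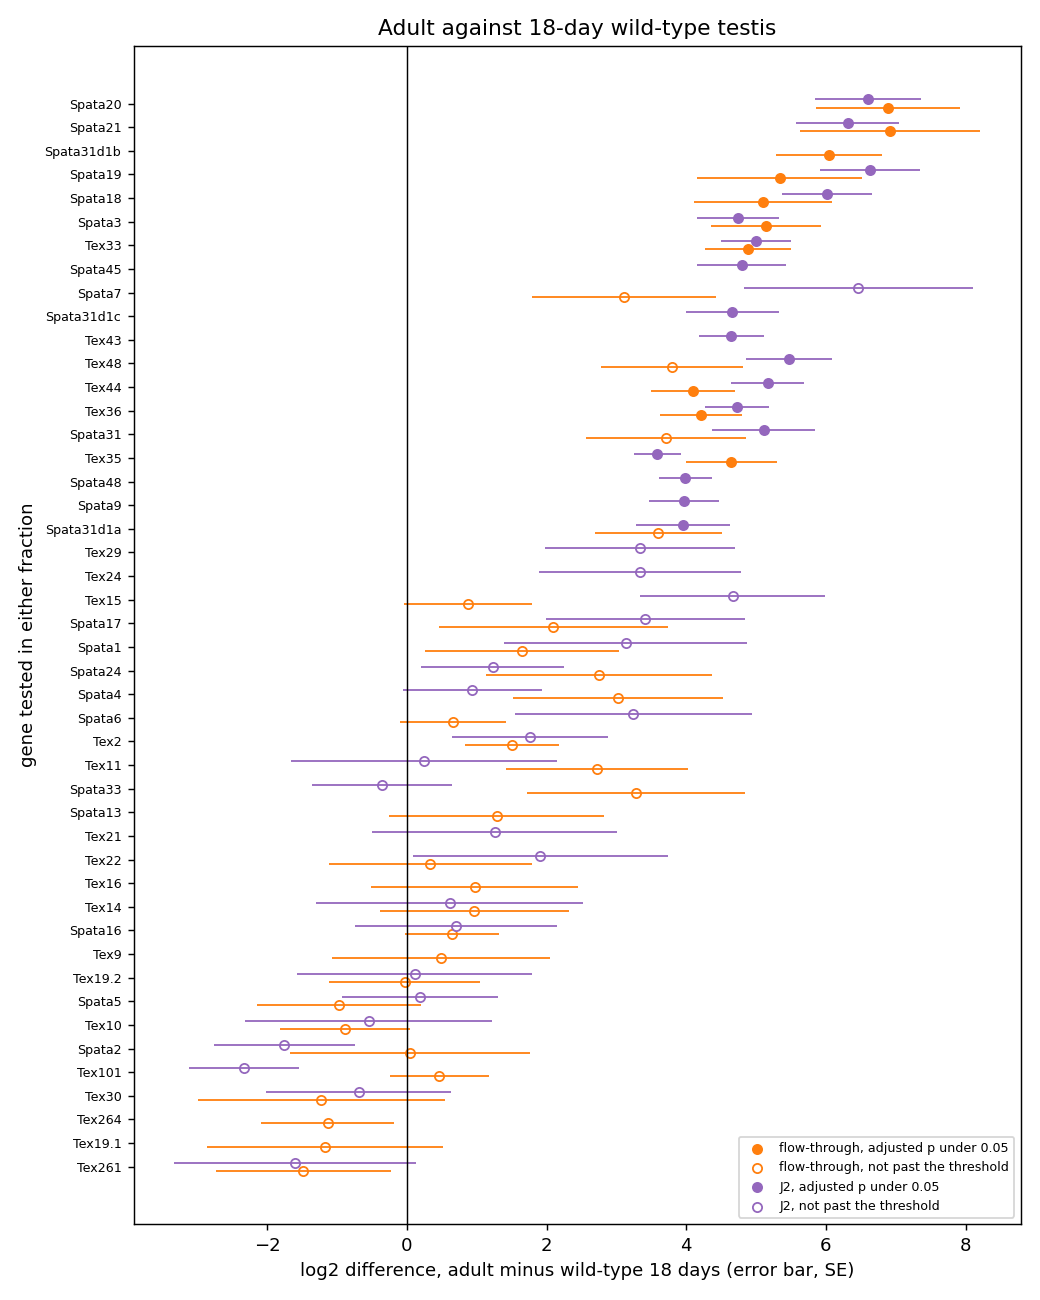
Points give the log2 difference of adult minus wild-type P18 testis for each gene tested in J2 (purple) or flow-through (orange), with bars for the SE; filled points passed an adjusted p of 0.05. The filled points lie between 3.59 and 6.92, and no filled point lies below 0.

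Other genes of the same stages were read from 2 lists. Of 40 spermatid genes such as protamines, transition proteins and outer dense fibre proteins, 26 of 35 tested were higher in adults in J2 (median log2 difference 5.50) and 18 of 31 in flow-through (median 4.76), and 0 were lower. Over all genes 5.07% and 3.08% were higher. The filter shaped these counts too: 23 of the 40 were at 0 in all wild-type P18 J2 libraries and 18 in all wild-type P18 flow-through libraries. Such genes could not be lower in adults, so the counts and medians of this list are a description. Of 40 genes of meiotic spermatocytes, such as Sycp3 of the synaptonemal complex, 0 of 32 and 0 of 33 were called, with 1 and 2 at an unadjusted p under 0.05 and medians of 0.77 and 0.30. The spermatid list summed to 4775 and 4903 in adult flow-through against 235 to 333 in wild-type P18 flow-through. Levels of other cell types are given beside these. Red blood cell markers summed to 15.0 to 18.2 in adult flow-through against 111 to 195 at P18, with 3 of 5 and 5 of 5 markers above 0, and 5.79 to 5.81 against 106 to 445 in J2. Myoid markers summed to 9.77 to 13.1 in adult J2 against 73.3 to 151. In flow-through they summed to 35.2 to 223 in adults against 150 to 450, which overlap. Sertoli markers summed to 137 to 293 in adult J2 against 331 to 928, and 126 to 354 in adult flow-through against 235 to 282, which overlap. Leydig markers overlapped in both fractions, at 144 to 182 in adult J2 against 88.7 to 213 and 130 to 155 in adult flow-through against 76.4 to 146. Of these lists only the red blood cell markers held genes called for age, 1 of 4 tested in J2 and 2 of 3 in flow-through, all lower in adults. The part of these levels in the age differences was not tested.

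Among the genes present at 18 days, the adult mean lay above the wild-type P18 mean in both fractions for 13 of the 24 and below it in both for 6.

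Among the meiotic genes, Tex15, needed for synapsis and for silencing of transposons in male germ cells, had 11.7, 13.0 and 23.8 in wild-type P18 flow-through and 54.3 and 15.3 in adult flow-through. In J2 it stood at 0.475, 0 and 0.454 in wild-type P18 and at 21.02 and 47.8 in adults, which did not overlap. The difference in J2 was 4.67 (SE 1.32, adjusted p = 0.0898) and that in flow-through 0.87 (SE 0.92, adjusted p = 0.78). Tex15 passed the J2 filter through the adult libraries alone, so its J2 p-value does not support the direction. Tex14, a protein of the intercellular bridges that join germ cells, ran from 0 to 65.9 in P18 flow-through and from 0 to 29.2 in P18 J2. Tex11, an X-linked meiotic crossover gene, ran from 0 to 21.1 and from 0 to 49.4. Tex19.1 and Tex19.2, paralogs linked to control of transposons, ran from 0 to 58.8 and from 0 to 41.8 over the P18 libraries. Replicates of these genes differed widely, and each of the 5 overlapped between adults and P18 in at least 1 fraction.

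Among the tail genes, Spata6, which acts in the connecting piece between head and tail, had 68.9, 74.3 and 19.8 in wild-type P18 flow-through and 44.7 and 123 in adults. In J2 it had 127, 3.67 and 15.7 at P18 and 254 and 162 in adults, without overlap. Spata17 ran from 0 to 23.4 over all P18 libraries and stood at 49.2 and 14.1 in adult flow-through and 68.4 and 36.9 in adult J2. Spata33, a sperm protein that ties the phosphatase calcineurin to the midpiece mitochondria, had 8.66, 17.3 and 0 in wild-type P18 flow-through and 41.2 and 69.3 in adults. Its adult J2 values were 303 and 36.2, and its J2 values were already 44.2 to 324 at P18.

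Among the sperm head and surface genes, Spata16, needed for the acrosome, ran from 19.22 to 60.2 in P18 flow-through and from 3.41 to 90.8 in P18 J2, and was 85.4 and 42.6 in adult flow-through and 26.5 and 59.7 in adult J2. Tex101, a glycoprotein anchored to the germ cell surface, was 47.9, 22.1 and 43.2 in wild-type P18 flow-through and 49.2 and 50.3 in adults. In J2 it was 327, 135 and 329 at P18 and 90.7 and 24.8 in adults. Adult libraries thus lay below wild-type P18 in J2, and above it in flow-through by less than the estimated worth of 1 read. Neither difference passed the threshold (-2.33, SE 0.78, adjusted p = 0.17 in J2; 0.46, SE 0.71, adjusted p = 0.85 in flow-through).

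Among the broadly expressed genes, Spata7, whose protein is best known from the connecting cilium of photoreceptors, had 0, 0.589 and 3.90 in wild-type P18 J2 and 280 and 108 in adult J2. The difference was 6.47 (SE 1.64, adjusted p = 0.0519), which missed the threshold, and it was called with a pseudocount of 5 (adjusted p = 0.0132). Spata7 passed the J2 filter through the adult libraries alone, so neither p-value supports the direction. In flow-through it had 4.32, 1.57 and 25.4 at P18 and 64.2 and 56.6 in adults. Tex2, a lipid transfer protein of the endoplasmic reticulum, ran from 8.27 to 98.5 over the 16 libraries. Tex10, part of a complex for ribosome maturation, ran from 0 to 143, and Spata5, an AAA ATPase, from 3.73 to 65.3. Of the genes in no role list, Spata4 ran from 0 to 91.7 at P18 and from 52.2 to 173 in adults, and Tex30 ran from 0 to 114 at P18 and from 0 to 28.0 in adults.

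The comparison of J2 with flow-through asked which transcripts were bound by the antibody. It was fitted over all 16 libraries, where 51 of the 65 genes were tested, and 0 Spata and Tex genes were called by limma in any of the 3 sets. The calls over all genes were 0.525% higher and 0.378% lower in wild-type P18, 0.168% and 0.189% in knock-out P18 and 0.147% and 0.168% in adults. At an unadjusted p under 0.05 there were 5, 5 and 2 of the 51 genes (9.80%, 9.80% and 3.92%), beside 13.9%, 11.5% and 6.64% of all genes. Among the 51 were 12 adults-only genes listed at 0 in all P18 libraries. These could not differ between fractions at P18, which lowers the P18 shares. The scaling matters here. For a common total, each library was rescaled to 1e+06 summed over all genes but those encoded in mitochondria. The median gene then stood at 1.87 (before, -0.05) in wild-type P18, 2.16 (before, -0.15) in the knock-out and 2.74 (before, 0.05) in adults. With this scaling 9, 5 and 41 Spata and Tex genes were called. In wild-type P18 the 9 stood beside 2575 of all 9526 genes tested. The scaling moved the median gene too, so these counts are no result about Spata and Tex genes. Differences given below are thus against the median gene, and do not measure amounts of RNA.

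Spata33 had the largest log2 difference towards J2 among the genes without overlap, in both P18 genotypes. Its normalized counts were 91.8, 324 and 83.6 in wild-type J2 against 8.66, 17.3 and 0 in wild-type flow-through, and 44.2, 104 and 92.0 in knock-out J2 against 11.2, 2.98 and 0. No J2 library overlapped a flow-through library of its genotype. The log2 differences were 4.61 (SE 1.15, adjusted p = 0.0631) and 4.38 (SE 1.15, adjusted p = 0.125), and the adult values of 303 and 36.2 in J2 overlapped 41.2 and 69.3 in flow-through. The wild-type difference passed the threshold with a pseudocount of 5 (adjusted p = 0.0428). Tex101 showed the same order at P18, with 327, 135 and 329 against 47.9, 22.1 and 43.2 in wild type and 124, 247 and 319 against 112, 49.4 and 23.5 in the knock-out. Its differences were 2.74 (adjusted p = 0.0851) and 2.05 (adjusted p = 0.30), and in adults -0.06.

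Tex15 had the largest difference towards flow-through among the genes without overlap in wild-type P18. Its difference was -3.67 (SE 1.01, adjusted p = 0.0851) there and -3.01 (adjusted p = 0.24) in the knock-out, where J2 had 20.3, 4.84 and 2.85 against 182, 23.6 and 54.9. The knock-out difference turned to 0.92 with a common total. Tex264, a receptor for autophagy of the endoplasmic reticulum, had 5.79, 0 and 2.57 in wild-type J2 against 36.6, 7.44 and 34.3, a difference of -2.95 (adjusted p = 0.24) that became 0.10 with a common total. Tex16, an X-linked testis gene, had 3.55, 1.60 and 0.965 in knock-out J2 against 57.9, 35.2 and 65.6, a difference of -4.19 (adjusted p = 0.17). In wild-type P18 it was at 0 in all 3 J2 libraries and at 0, 5.87 and 0 in flow-through. Tex2 in the knock-out differed by -2.29 (adjusted p = 0.32), and by 1.62 with a common total.

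**Figure D5:**
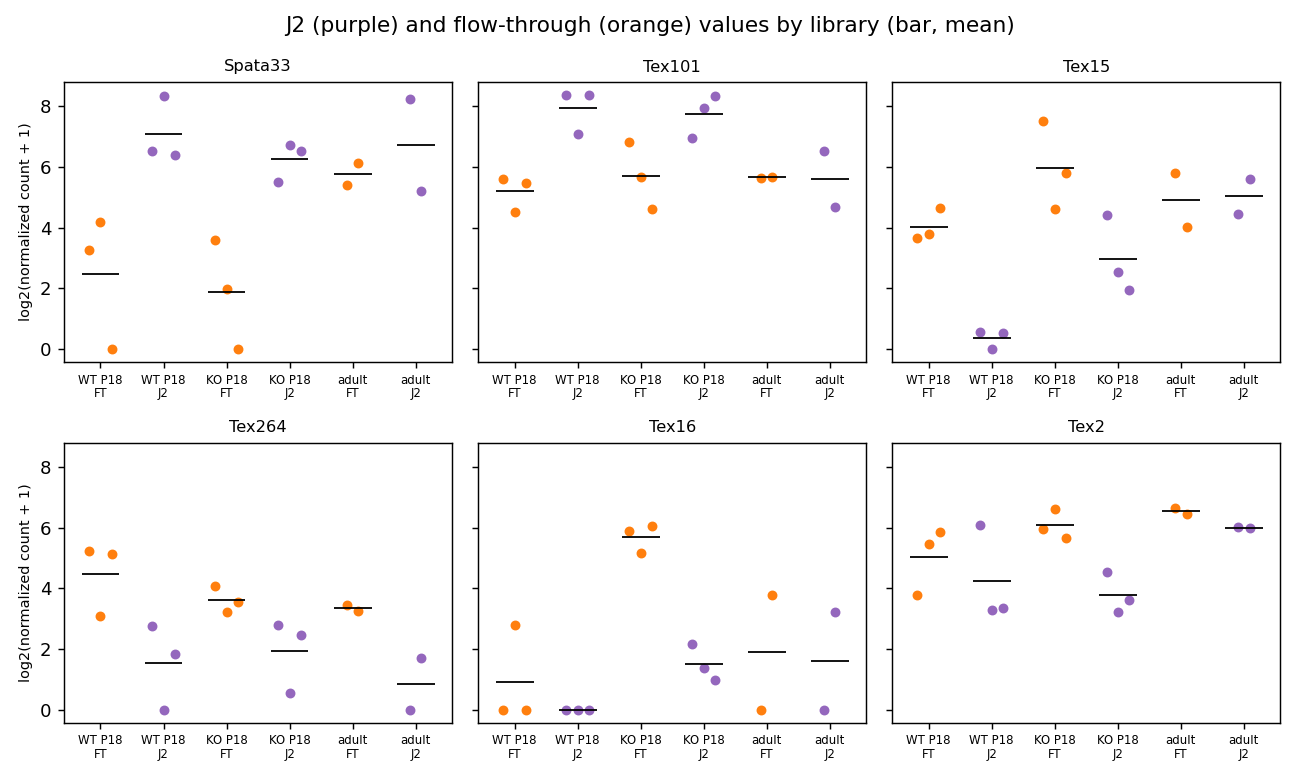
Points give log2(normalized count + 1) in each library for 6 genes whose J2 and flow-through libraries did not overlap in at least 1 P18 genotype, by group, and bars give group means. Spata33 and Tex101 lie higher in J2 (purple) than in flow-through (orange) in both P18 genotypes, and Tex15 lies lower.

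Groups without overlap were counted as well. In wild-type P18, 2 of 51 lay higher (3.92%) and 2 lower (3.92%) in J2, beside 7.08% and 8.3% of all genes. In knock-out P18 it was 2 (3.92%) and 4 (7.84%), beside 6.95% and 11.1%. In adults, with 2 libraries a group, 9 lay higher (17.6%) and 6 lower (11.8%), beside 18.4% and 17.3%. Each share was below that of all genes, and the difference was not tested. At P18, 12 adults-only genes among the 51 were listed at 0 in all libraries. They could not be free of overlap there, which lowers the P18 shares. The adults-only genes were on both sides. Spata45 had 57.3 and 12.2 in J2 against 6.04 and 5.35 in flow-through (difference 2.05, adjusted p = 0.68), and Tex43 differed by 1.58 (adjusted p = 0.77). Tex47, of the low class, differed by 2.69 (adjusted p = 0.69). Spata21 differed by -1.58 (adjusted p = 0.88) and Spata31d1b by -1.93 (adjusted p = 0.76). Tex264, of the class present at 18 days, differed by -2.49 (adjusted p = 0.80). With a common total the last 3 became 2.95, 2.40 and 0.45.

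The test of whether the age difference itself depended on the fraction called 0 of the 51 genes, and 0% of all genes; 2 of the 51 (3.92%) had an unadjusted p under 0.05, beside 5.40% of all genes. Those were Tex101 at -2.80 (SE 1.19, adjusted p = 0.83) and Tex15 at 3.79 (SE 1.59, adjusted p = 0.83). With a common total 17 were called, a count that is likewise no result about Spata and Tex genes.

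Knock-out and wild-type testis at P18 were compared within each fraction, to ask what the loss of Dicer changed. By limma 0 of 40 Spata and Tex genes were called in J2 and 0 of 38 in flow-through, and 0% of all genes were called in either. At an unadjusted p under 0.05 there was 1 gene in J2 (2.5%, beside 6.39% of all genes) and 4 in flow-through (10.5%, beside 6.11%). The 4 in flow-through were Tex16, Tex11, Tex14 and Tex15, of which Tex11, Tex14 and Tex15 belong to the meiotic list. Tex19.1 and Tex19.2 of that list differed by -0.26 and 0.48. Among the meiotic spermatocyte genes, 1 of 33 tested had an unadjusted limma p under 0.05, and their median difference was 0.14. Tex16 had 57.9, 35.2 and 65.6 in the knock-out against 0, 5.87 and 0 (difference 4.78, SE 1.32, adjusted p = 0.75). Tex11 had 12.6, 21.1 and 17.2 against 0, 4.01 and 0 (3.37, SE 1.16, adjusted p = 0.79). Both were free of overlap (5.26%), and 0 genes were without overlap on the lower side, beside 7.53% and 3.04% of all genes. The wild-type values of 0 were in replicates 1 and 3, with an estimated 1.73 and 0.998 M reads. Wild-type replicate 2 had 3.02 M, and the knock-out libraries had 4.30, 3.88 and 2.79 M. Total reads do not give the depth behind a value. A value of 10 was an estimated 1.68, 4.99 and 1.20 reads in wild-type replicates 1, 2 and 3. In knock-out replicates 1, 2 and 3 it was 1.23, 4.90 and 3.62 reads, and the Tex11 value of 12.6 was in knock-out replicate 1. Over all genes the median difference was 0.33, with 4336 genes above 0 and 2679 below. Tex14 had 12.5, 65.9 and 46.6 against 0, 17.8 and 4.32 (2.92, adjusted p = 0.79), and Tex15 had 182, 23.6 and 54.9 against 11.7, 13.0 and 23.8 (1.94, adjusted p = 0.79). Sertoli cell markers summed to 401 to 445 in knock-out flow-through against 235 to 282 in wild type, with 9 of 10 markers above 0 in each, and the 40 meiotic genes to 1449 to 2124 against 1204 to 1941. In J2 the Sertoli markers summed to 602 to 935 in the knock-out against 331 to 928, and the meiotic genes to 1422 to 2285 against 2796 to 3058. The 40 spermatid genes summed to 133 to 191 in knock-out flow-through against 235 to 333, and to 161 to 184 against 202 to 617 in J2. Their part in the values above was not tested.

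In J2 the gene at an unadjusted p under 0.05 was Spata2, an adaptor of the deubiquitinase CYLD, at 0.336, 0 and 0 in the knock-out against 13.4, 13.2 and 1.99 (difference -2.95, SE 0.90, adjusted p = 0.69). Spata24 differed by -1.60 (adjusted p = 0.85), with 5.07, 9.84 and 6.89 against 40.1, 25.7 and 12.2. Tex15 differed by 2.60 (adjusted p = 0.79), with 20.3, 4.84 and 2.85 against 0.475, 0 and 0.454. These 3 were the genes without overlap, 1 higher and 2 lower, beside 6.12% and 3.78% of all genes. Adults-only genes were 18 of the 40 tested in J2 and 13 of the 38 in flow-through. Of these, 12 and 6 were listed at 0 in all 6 P18 libraries of the fraction, so the count of 0 calls says nothing about them.

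The 18 low genes reached 10 in too few libraries for either class, and 9 were listed at 0 in all P18 libraries. Tex28 was listed at 0 in all 16. Tex38, which acts with a palmitoyltransferase in shaping the sperm head, had 19.3 and 6.79 in adult flow-through and 7.83 and 4.26 in adult J2, and Spata46 had 14.2, 7.43, 6.07 and 6.61 in the same libraries. Spata32 and Tex46 were above 0 in adult J2 alone, at 71.7 and 4.67 and at 38.8 and 2.37. For Tex38, Tex26 and Tex13a all 4 adult values were above 0 and all 12 P18 values were 0. Their adult values were 3.50 to 19.3.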

How the data were processed

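RNA of 16 libraries was sequenced after J2 division of testis RNA, with a strand-specific NuGEN Ovation SoLo kit per the labels' protocols. The authors deposited 1 signal value, a normalized count, for each Ensembl gene in each library. Per the submitters' processing notes, FastQC, Trimmomatic, Salmon, DESeq2 and build mm10 were used; their roles, settings and versions are not given in the sources used here. Whole reads could not be recovered from the values, so no count test was run. All columns were matched to samples by label, and 0 pairs of columns were identical. Of 35920 identifiers 35446 matched a symbol and 474 did not. Positions and promoter windows are from RefSeq, GRCm38.p6, the assembly that mm10 names; 64 of the 65 genes had a position.

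Tests were run by limma 3.58.1 (R 4.3.3) on log2(value + 1) (empirical Bayes with a mean trend, two-sided, Benjamini-Hochberg over all genes tested, threshold 0.05), for genes with at least 10 in 2 of the libraries fitted. Adding 1 understates differences of low genes. J2 against flow-through and the age by fraction term used all 16 libraries, the other comparisons the 8 of their fraction. The fit was also run on simulated data with normal scatter and large changes added. That simulation did not copy genes listed at 0 in a whole group, so it says nothing about those. The members, lists and rules were chosen with earlier results of these data known. Named genes were those called, those of highest level, those of largest difference without overlap in each comparison, the 12 adults-only genes of highest adult level, up to 4 of each role list, and those nearest the presence threshold; other genes named were chosen after their values were seen. The alternatives were other pseudocounts, filters and scalings, fits of the compared groups alone, a block by shared code, and each library left out. Spata22, Spata5l1 and Tex40 of the role lists were not analysed here.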

Additional observations from a re-analysis of the deposited data

Results flagged for a closer look

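Tex101, a glycoprotein of the germ cell surface, was flagged because its age difference pointed in opposite directions in the 2 fractions, with no overlap between groups in either. Adult J2 libraries had 90.7 and 24.8 against 327, 135 and 329 in wild-type P18, and adult flow-through libraries had 49.2 and 50.3 against 47.9, 22.1 and 43.2. The separation in flow-through, 49.2 against 47.9, was less than 1 read. By the estimate 1 read was worth 4.83 units in that adult library and 5.96 in that P18 library. Knock-out P18 flow-through reached 112, above both adult values. The test of the difference between fractions gave -2.80 on the log2 scale (SE 1.19, limma adjusted p = 0.83), which does not pass the threshold.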

How the results depend on the processing

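The presence split gave 23 adults-only genes, 14 at a threshold of 20 and 30 at a threshold of 5. Asking for 0 in all P18 libraries gave 20 adults-only genes, 12 of them shared, and 44 present at 18 days. Leaving out 1 library at a time gave 19 to 25 adults-only genes and 22 to 24 present at 18 days. For adult against P18, without a filter 0 genes were called in either fraction, and a filter at 50 left 4 calls of 12 tested in J2 and 2 of 13 in flow-through, fewer genes being tested. Leaving out 1 library gave 0 to 18 calls in J2 and 0 to 10 in flow-through, with 0 only when an adult library was removed and the called genes were no longer tested. An alternative chosen after seeing the data kept the tested genes and gave 17 and 8 calls without either adult library. The adult arm is then 1 library, assumed to vary like the other groups, and the genes were chosen with both adult libraries, so this is no independent check. In flow-through Spata18 and Spata19 missed the threshold without wild-type replicate 1 or 3 (adjusted p 0.0796 to 0.12), as did Spata21 without replicate 3 (0.0505).

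For J2 against flow-through, a pseudocount of 5 gave 1 call in wild-type P18 and 1 in knock-out P18, a filter at 50 gave 2 in wild-type P18, and no filter gave 2 in adults. A common total gave 9 calls in wild-type P18, beside 2575 of all 9526 genes tested. The same scaling gave 5 calls in knock-out P18, 41 in adults and 17 for age by fraction. It reversed Tex264 (0.10) in wild-type P18, Tex15 (0.92) and Tex2 (1.62) in knock-out P18, and Spata21 (2.95), Spata31d1b (2.40) and Tex264 (0.45) in adults. The cause was not tested. Knock-out against wild type kept 0 calls in both fractions under all alternatives run.

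Each J2 library shares a code with a flow-through library, which may mark a shared source. The deviations of same-code libraries correlated at -0.026 to 0.031 over 9526 genes, and those of libraries with different codes at -0.063 to 0.038. With 2 or 3 libraries a group and few reads behind many values, this cannot decide whether the codes pair libraries. The main fits did not use the codes. With the replicate block by code, 0 Spata and Tex genes were called in each of the 3 J2 comparisons and the age by fraction term, as without it. The depth of flow-through, where 10 units were as few as 1.20 reads, limits what its values of 0 can show.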
